A study of Mus musculus with 46 samples.

Results

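The 9 late pluripotency effector genes Dppa2, Dppa4, Dppa5a, Utf1, Tdgf1, Lin28a, Lin28b, Trim71 and L1td1 were followed by ChIP-Seq of 3 chromatin features: the replacement histone H3.3, trimethylation of H3 at lysine 4 (H3K4me3) and trimethylation of H3 at lysine 36 (H3K36me3). The genes were taken by name from the GENCODE vM1 annotation of the mouse build mm9, which holds 22380 protein-coding genes. For each gene, all peaks that overlapped the stretch from 1 kb before the gene to 1 kb after it, called the gene window, were collected, and their normalized tag counts were added up. A summed tag count is therefore a number of ChIP tags in a library scaled to 10 M tags, and such scaled tags, drawn in the plots as tags per 10 M, are called normalized tags.

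Mouse embryonic fibroblasts carrying an IRES-EGFP cassette at Oct4 were infected with pMXs retroviruses for Oct4, Sox2, Klf4 and c-Myc. H3.3 was profiled on day 0 (D0), in unsorted cells on day 3 (D3), in fractions sorted by Thy-1, a fibroblast surface protein (T), on days 6 and 9 and by the stage-specific antigen SSEA-1 (S) on days 12 and 16, in fully reprogrammed iPSCs, and in the ESD3 embryonic stem cell line. The fractions that had lost Thy-1 (D6T-, D9T-) or gained SSEA-1 (D12S+, D16S+) are called the successful route here, and their counterparts (D6T+, D9T+, D12S-, D16S-) the unsuccessful route. The 2 histone marks were profiled in D0, D3, the successful fractions and iPSCs. Another 4 H3.3 libraries followed fibroblasts transduced with Scl, Lmo2, Runx1 and Bmi1 towards hematopoietic cells: MEF, D4, cKit+ and cKit-. All of these cells except ESD3 were made from embryonic fibroblasts, and fractions were sorted cell populations rather than clones. Per the methods, fibroblasts transduced towards hematopoietic cells were grown together with inactivated OP9 stromal cells. Whether stromal cells entered these libraries was not tested. The methods define day 0 by the infection step, and whether the D0 cells had already met the virus is not given in the sources used here. Each group had 1 library, so a difference between libraries had no replicate check, and no test was made. The intervals given are exact 95% Poisson intervals of the tags, or exact intervals of a ratio of tags, and they cover counting error only.

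In the embryonic stem cell, the genes studied here act downstream of the core transcription factors. Dppa2 and Dppa4 are neighbouring genes for a pair of SAP-domain chromatin proteins, Dppa5a encodes a KH-domain protein that binds RNA, and Utf1 encodes a chromatin-associated factor of undifferentiated cells. Tdgf1 encodes Cripto, a membrane-anchored co-receptor of the growth factor Nodal. Lin28a and Lin28b encode RNA-binding proteins that block maturation of let-7 microRNAs, Trim71 is a let-7 target that encodes an RNA-binding TRIM-NHL protein, and L1td1 encodes an RNA-binding protein derived from a LINE-1 retrotransposon. H3.3 is placed into chromatin outside of DNA replication, largely at active genes and regulatory regions, H3K4me3 marks active or poised start sites, and H3K36me3 marks the bodies of transcribed genes.

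The genes lay on 5 chromosomes. Dppa4 (chr16:48283848-48294405) and Dppa2 (chr16:48310590-48319836) were 16.2 kb apart on the plus strand. Tdgf1 (chr9:110842114-110848662), Trim71 (chr9:114420393-114473487) and Dppa5a (chr9:78214859-78215984) shared a chromosome, all on its minus strand. Lin28a (chr4:133559245-133574756) and Lin28b (chr10:45096426-45206201) were also on the minus strand, and L1td1 (chr4:98393425-98405171) and Utf1 (chr7:147129688-147131011) on the plus strand. Windows ran from 3.13 kb (Dppa5a) to 112 kb (Lin28b), with a median of 12.6 kb against 17.4 kb over all protein-coding genes. In 1 window, that of Lin28a, another annotated gene was found, the lincRNA gene Gm13061, so signal at the Lin28a start site cannot be told apart between both genes. Dppa5a and Tdgf1 have related copies elsewhere in the mouse genome, and because reads with several locations were removed, their counts are uncertain.

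The start sites differed in their density of CpG dinucleotides, and the 250 bases before 4 of them are shown as examples. The stretches not shown did not all follow H3K4me3 in D0, which is described later. Lin28a held 6 CpG and had an H3K4me3 peak in D0, whereas Dppa5a held 9 and had none. Capitals mark CpG dinucleotides, and each sequence reads in the direction of transcription. The Tdgf1 stretch (chr9:110848663-110848912, minus strand) held 7 CpG and the L1td1 stretch (chr4:98393175-98393424, plus strand) held 12. The Trim71 stretch (chr9:114473488-114473737, minus strand) held 17 and the Lin28b stretch (chr10:45206202-45206451, minus strand) held 41. No annotated exon overlapped any of these stretches, which were read from the mm9 genome.
Tdgf1: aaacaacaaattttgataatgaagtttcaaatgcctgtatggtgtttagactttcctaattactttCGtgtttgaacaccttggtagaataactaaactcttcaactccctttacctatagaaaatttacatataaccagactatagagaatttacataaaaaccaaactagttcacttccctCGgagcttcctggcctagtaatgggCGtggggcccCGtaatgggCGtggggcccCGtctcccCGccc
L1td1: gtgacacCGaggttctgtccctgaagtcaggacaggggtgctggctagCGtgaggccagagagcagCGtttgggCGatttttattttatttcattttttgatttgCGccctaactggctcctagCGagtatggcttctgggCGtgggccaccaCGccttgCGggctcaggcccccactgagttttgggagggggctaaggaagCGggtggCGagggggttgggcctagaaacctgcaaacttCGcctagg
Trim71: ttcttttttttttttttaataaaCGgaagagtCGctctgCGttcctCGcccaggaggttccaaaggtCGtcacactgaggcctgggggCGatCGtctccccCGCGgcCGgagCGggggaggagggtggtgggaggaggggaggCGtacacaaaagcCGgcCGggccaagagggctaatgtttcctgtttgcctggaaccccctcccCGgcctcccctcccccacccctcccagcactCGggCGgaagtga
Lin28b: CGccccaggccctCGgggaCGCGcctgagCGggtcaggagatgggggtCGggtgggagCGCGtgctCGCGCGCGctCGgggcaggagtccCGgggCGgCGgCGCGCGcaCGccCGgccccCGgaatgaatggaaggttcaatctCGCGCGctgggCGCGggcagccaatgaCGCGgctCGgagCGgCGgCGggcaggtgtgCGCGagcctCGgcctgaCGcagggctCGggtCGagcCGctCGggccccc

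In the H3.3 libraries, peaks were listed at 4 of the 9 genes in D0 and at 9 of 9 in iPSCs, while the share of all protein-coding genes with a peak in the window was 61.8% in D0 and 61.1% in iPSCs. ESD3 cells also carried an H3.3 peak at 9 of 9, against 52.1% of all protein-coding genes. Between these ends the count was 4 in D3 and in D6T- and 6 in D9T-, then 8 (D12S+) and 7 (D16S+). In the unsuccessful fractions, H3.3 peaks were listed at 2 of the 9 genes in D6T+ and in D9T+, at 5 in D12S- and at 4 in D16S-. Of all protein-coding genes, 57.3% had a peak in D3, and 43.3% (D16S+) to 63.4% (D12S-) had one in the sorted fractions of both kinds. The peak lists hold only regions above the threshold of the caller, so a gene without a peak is not a gene without H3.3.

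**Figure D1:**
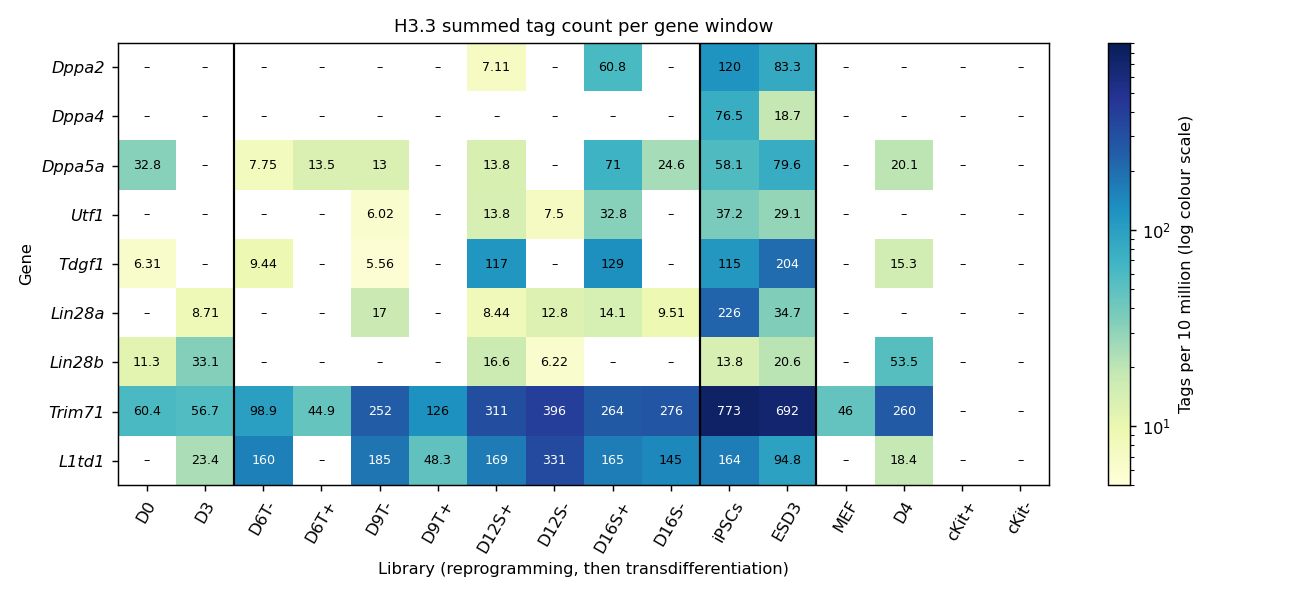
Summed H3.3 tag count (normalized tags, log colour scale) of each gene (rows) in each library (columns), with a dash where no peak was listed. All 9 rows are filled in iPSCs and ESD3, and none in cKit+ or cKit-, whereas Trim71 alone is filled in MEF.

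Libraries differed in ways that touch these counts. The 12 reprogramming H3.3 libraries held 18.7 to 41.2 M tags, and 4.88% (D16S+) to 22.0% (D12S-) of the tags lay in peaks. The iPSC library was the deepest, at 41.2 M tags against 27.0 M in D0. Peak calling considered up to 2 tags per base position in iPSCs and 1 in the rest of these libraries. Both S+ libraries had lower shares of tags in peaks than the S- libraries of the same day, with 6.93% against 22.0% on day 12 and 4.88% against 12.2% on day 16, and iPSCs had 14.0%. The H3K4me3 library of D16S+ had 3.71% of its tags in peaks, against 30.4% in D0, and the H3K36me3 libraries spanned 1.07% (D12S+) to 42.4% (D9T-). For H3K36me3 of D6T-, HOMER had estimated fragments of 444 bp, and for the other libraries 110 to 168 bp. Fewer cells that carry a mark and less of the mark per cell cannot be told apart in these bulk libraries. Of 8 fibroblast marker genes, H3.3 peaks lay at 8 in D0, at 2 in D16S+, at 7 in D16S- and at 2 in iPSCs, and of 8 pluripotency marker genes at 3, 7, 5 and 7. In the same order, the fibroblast sums were 4790.5, 64.3, 685 and 306 normalized tags, and the pluripotency sums were 97.6, 533, 118 and 1468. Twist2, Thy1 and Postn had no peak in iPSCs, and Nanog, Sall4 and Prdm14 none in D0, whereas Nr0b1 had none in D0 or in iPSCs. The fibroblast markers Fn1 (275.58) and Col1a1 (29.97) kept a peak in iPSCs, at 0.223 and 0.0515 times their D0 values. The pluripotency marker Klf2 went the other way from its list, with an iPSC value of 41.39, or 0.702 times that of D0. Klf2 had no peak in ESD3. How far cell composition enters the values below was not tested.

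Against D0, a gene was called higher in a library when a peak was listed there and not in D0, or when its summed tag count was at least 2 times that of D0. By this rule H3.3 was higher in iPSCs at 7 of the 9 genes and lower at 0, against 24.6% of the 15815 protein-coding genes with a peak in either library that were higher and 41.6% that were lower. Among all genes with peaks in both libraries the median log2 ratio of iPSCs to D0 was -0.53, and among the 4 effector genes with peaks in both it was 2.25. Dppa2, Dppa4, Utf1, Lin28a and L1td1 had a peak in iPSCs and none in D0. With libraries scaled to tags in peaks, which was added after the data had been seen, 8 of the 9 were higher (Dppa5a in addition), 0 were lower, and 30.2% of all genes were higher and 34.4% lower.

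Dppa2 and Dppa4 were without a peak in D0, D3, all 4 day 6 and day 9 fractions, D12S- and D16S-. Dppa2 had 7.11 normalized tags in D12S+, 60.8 in D16S+, 83.3 in ESD3 and 119.7 in iPSCs. Relative to D16S+, the iPSC ratio was 1.97 (interval 1.60 to 2.44), but it was 0.689 when libraries were scaled to tags in peaks. In D12S+ the only peak was 500 bp long and lay 0.77 to 0.27 kb before the start site, and in D16S+ a peak covered the start site and 3 more lay 5.32 to 9.60 kb past it. Dppa4 had 76.5 in iPSCs, spread over 5 peaks from the start site into the body, and 18.7 in ESD3, where a single peak ended 0.11 kb before the start site. Thus Dppa4 was the last of the 9 genes to show an H3.3 peak, and its window was empty in D16S+ while that of Dppa2 held 4 peaks.

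Dppa5a showed no such order. It had 32.8 normalized tags in D0, none listed in D3, values of 7.75 (D6T-), 13.0 (D9T-) and 13.8 (D12S+) along the route, and then 71.0 in D16S+, 58.1 for iPSCs and 79.6 for ESD3. On the unsuccessful route it had 13.5 in D6T+, no peak in D9T+ and D12S-, and 24.6 in D16S-. The D0 peak covered the start site and the whole gene, and the fibroblast library of the other experiment, MEF, had no peak at Dppa5a. Dppa5a was 1.77-fold higher in iPSCs than in D0 (1.39 to 2.30), under the 2-fold limit, and 2.42-fold higher with scaling to tags in peaks. Part of the late values lay beyond the window, since 20.6% of the longer D16S+ peak and 50.2% of the iPSC peak were inside it. Prorated to the window, D0 held 10.5 normalized tags per kb and iPSCs 9.34.

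Utf1 was without a peak in D0, D3 and both day 6 fractions, and had 6.02 normalized tags in D9T-, 13.8 in D12S+, 32.8 in D16S+, 37.2 in iPSCs and 29.1 in ESD3. On the unsuccessful route the sole peak was in D12S-, with 7.50, and the ratio of D12S+ to D12S- was 1.84 (1.04 to 3.48). With scaling to tags in peaks that ratio was 5.83, and the highest Utf1 value was in D16S+, since the ratio of iPSCs to D16S+ went from 1.13 to 0.396. However, 14.5% of the D16S+ peak lay in the window. Prorated to the window, the sums were 6.02 in D9T-, 11.7 in D12S+, 4.77 in D16S+, 18.8 in iPSCs and 9.06 in ESD3. By that count D16S+ was the lowest of these libraries. None of the 6 Utf1 peaks covered the start site. They began 0.93 to 1.98 kb downstream of it, and 5 of the 6 began beyond the gene end at 1.32 kb, where no other gene was annotated.

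The stretch from 1801 to 2278 bases past the Utf1 start site was common to 5 of the 6 peaks, those of D9T-, D12S+, D12S-, iPSCs and ESD3. Inside it the genome held the Sox core CATTGT, any single base and the octamer-like ATGC in a row, read on the minus strand, and 120 bases around it are printed because Utf1 is a textbook case of a gene with a downstream Oct4 and Sox2 enhancer. The match, in capitals on the plus strand, began 1896 bases past the start site (mm9 chr7:147131529-147131648).
Utf1 downstream peak: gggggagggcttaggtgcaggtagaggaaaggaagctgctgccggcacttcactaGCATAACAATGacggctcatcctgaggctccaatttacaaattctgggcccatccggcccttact
Among the windows of 478 bases at the same distance from the start sites of all 22380 genes, 19 (0.0849%) held such a run on either strand. The search letters were chosen with the position of the peaks known, and a match of letters is not evidence of binding. In D16S+ the peak began 1.98 kb past the start site, just beyond the match.

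Tdgf1, for the Nodal co-receptor, had its large values from day 12 on. It had 6.31 normalized tags in D0, none listed in D3, 9.44 in D6T- and 5.56 in D9T-, and then 117 in D12S+, 129 in D16S+, 115 in iPSCs and 204 in ESD3. In all 4 unsuccessful fractions no peak was listed. The D0 peak lay 7.53 to 8.03 kb past the start site, with 4.6% of its length in the window, so little of the D0 value belongs to the gene. Between iPSCs and D12S+ the ratio was 0.982 (0.843 to 1.15), or 0.487 with scaling to tags in peaks. In D12S+ the peaks covered 73.2% of the window, in D16S+ 79.1% and in iPSCs 74.9%. The largest ESD3 peak also reached into the neighbouring gene Lrrc2, with 45.7% of its length in the window.

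Lin28a had no peak in D0, D6T-, D6T+ and D9T+. It had 8.71 normalized tags in D3, 17.0 in D9T-, 8.44 in D12S+, 12.8 in D12S-, 14.1 in D16S+ and 9.51 in D16S-, all of them small peaks at either end of the gene or in its body. In iPSCs it had 226 in 6 peaks that covered 81.0% of the window, the largest of which ran on into the neighbouring gene Dhdds. This was 16.0-fold the D16S+ value (10.7 to 24.0), or 5.60-fold with scaling to tags in peaks. In ESD3 it had 34.7 in 2 peaks that covered 11.3% of the window, and the ratio of iPSCs to ESD3 was 6.52 (5.15 to 8.37), the highest of the 9 genes. Over all genes the median ratio of iPSCs to ESD3 was 1.91, and with scaling to tags in peaks the Lin28a ratio was 3.46.

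Its paralog Lin28b had low values throughout, with 11.3 normalized tags in D0, 33.1 in D3, 16.6 in D12S+, 6.22 in D12S-, 13.85 in iPSCs and 20.6 in ESD3, and no peak in the other 6 reprogramming libraries. From D0 to iPSCs the ratio was 1.23 (0.786 to 2.01). Its peaks were short and their place in the gene differed between libraries. In D0 the only peak lay 87.7 to 88.6 kb past the start site, in D3 the strongest overlapped it, and in D12S+ and iPSCs peaks lay just before the start site and 39.7 to 40.5 kb inside the gene. Peaks covered at most 2.40% of the window in any reprogramming library.

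Trim71 had an H3.3 peak in all 12 reprogramming libraries. Its sum was 60.4 normalized tags in D0 and 56.7 in D3, and on the successful route 98.9, 252, 311 and 264 on days 6, 9, 12 and 16, then 773 in iPSCs and 692 in ESD3. The unsuccessful fractions had 44.9, 126, 396 and 276. Against D0 the ratio was 0.743 (0.568 to 0.957) for D6T+, but 4.37 (3.65 to 5.25) for D16S+ and 4.57 (3.83 to 5.47) for D16S-, so both routes were above D0 on day 16. The likeness of the routes did not hold with scaling to tags in peaks, where the ratio to D0 was 17.1 for D16S+ and 7.14 for D16S-, and 1.30 for D6T+. Under that scaling Trim71 was 2.49-fold higher in D12S+ than in D12S-, in place of 0.787, and 2.39-fold higher in D16S+ than in D16S-, in place of 0.956. In iPSCs Trim71 was 12.8-fold higher than in D0 (10.9 to 15.05). The iPSC value was 2.93-fold that of D16S+ (2.66 to 3.22), but 1.02-fold with scaling to tags in peaks. Covered sequence was longer as well, going from 4.22 kb in D0 to 26.7 kb in D12S- and 58.4 kb in iPSCs, where the longest peak was 29.7 kb and peaks covered 92.3% of the window.

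L1td1 had no peak in D0 and 23.4 normalized tags in D3, before the start site. On the successful route it had 160.1 on day 6, 185 on day 9, 169 on day 12, 164.5 on day 16 and 164 in iPSCs. These near-equal values depended on the scaling, since per M tags in peaks L1td1 had 83.0 on day 6, 125 on day 9, 243 on day 12 and 337 on day 16, then 118 in iPSCs, or 0.349 times the D16S+ value. On the unsuccessful route no peak was listed in D6T+, and the sum was 48.3 in D9T+, 145 in D16S- and 331 in D12S-. This last value was the highest of the 12 libraries. D12S- also had the highest share of tags in peaks, and scaled to tags in peaks the ratio of D12S+ to D12S- was 1.61 in place of 0.509. In D6T- a peak covered the start site and another the 3' end of the gene, and in D12S- the peaks covered 89.5% of the window.

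**Figure D2:**
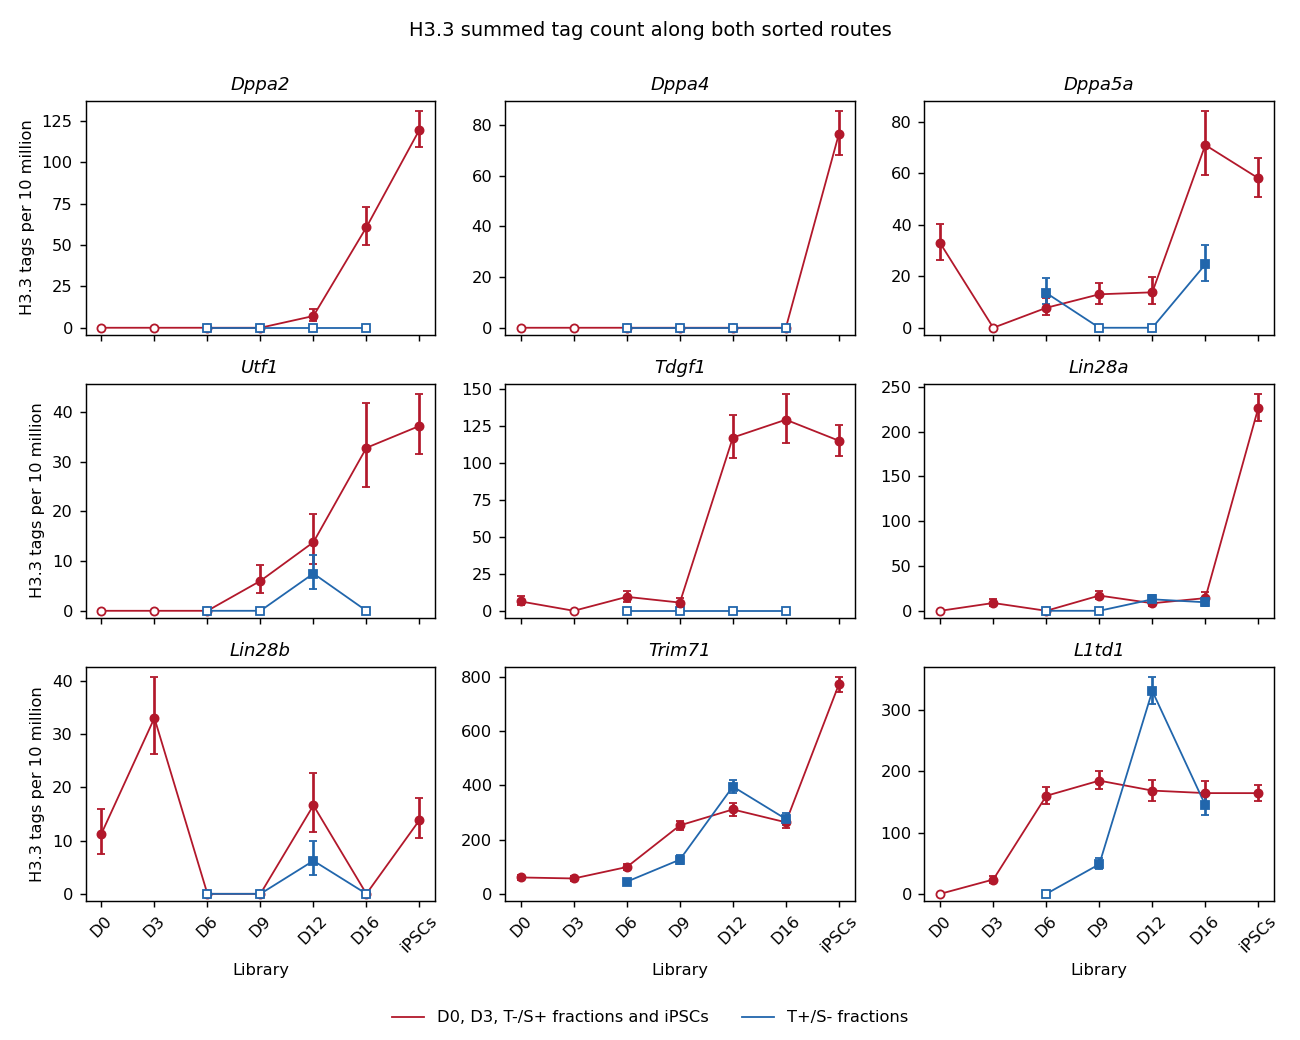
Summed H3.3 tag count (normalized tags, linear axis) of each gene along the successful route with D0, D3 and iPSCs (red circles) and in the unsuccessful fractions (blue squares). Error bars are 95% Poisson intervals of the tags, and open symbols at 0 mark libraries with no listed peak. Tdgf1 reaches 117 in D12S+ without a peak in any blue library, while Trim71 and L1td1 lie above D0 on both routes by day 12.

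The routes were then compared on each day. On day 6, 3 of the 4 effector genes with a peak in either fraction were higher in D6T- than in D6T+ (Tdgf1, Trim71 and L1td1), where 52.6% of all genes were higher. On day 9, 6 of 6 were higher in D9T- than in D9T+, where 28.4% of all genes were. L1td1 was 3.83-fold higher (3.10 to 4.72) and Trim71 was 2.00-fold higher (1.75 to 2.30) in D9T-, and Dppa5a, Utf1, Tdgf1 and Lin28a had a peak in D9T- only. These 4 rested on single peaks of 42 (Dppa5a), 19 (Utf1), 18 (Tdgf1) and 55 (Lin28a) tags. The Tdgf1 peak in D9T- lay beyond the gene end, 7.21 to 7.71 kb past the start site, and overlapped the peak of D0.

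On day 12, 4 of the 8 genes with a peak in either fraction were higher in D12S+ than in D12S- (Dppa2, Dppa5a, Tdgf1 and Lin28b), and 0 were lower. Over all genes 3.75% were higher and 80.7% lower, and the median ratio of D12S+ to D12S- was 0.300. The 5 effector genes with peaks in both fractions had ratios of 0.509 (L1td1), 0.659 (Lin28a), 0.787 (Trim71), 1.84 (Utf1) and 2.68 (Lin28b). On day 16, 4 of 7 were higher in D16S+ than in D16S- (Dppa2, Dppa5a, Utf1 and Tdgf1) and 0 were lower, against 9.75% of all genes higher and 69.6% lower, with a median ratio of 0.369. Dppa5a was 2.89-fold higher (2.09 to 4.11), whereas the ratio was 1.49 (0.833 to 2.96) for Lin28a, 1.14 (0.964 to 1.33) for L1td1 and 0.956 (0.846 to 1.08) for Trim71. The Dppa5a order reversed when tags were prorated to the window, with 15.6 normalized tags in D16S+ and 24.6 in D16S-. Its D16S+ peaks had 20.6% and 25.7% of their length in the window, whereas the D16S- peak lay wholly inside it. By the prorated count 3 genes were higher in D16S+. Dppa2 and Tdgf1 were the genes with a peak in both S+ libraries and in neither S- library.

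With libraries scaled to tags in peaks, 7 of 8 genes were higher in D12S+ and 7 of 7 in D16S+, against 13.0% and 19.97% of all genes, with 38.3% and 44.7% lower. On day 6 the same scaling gave 2 of 4 higher and 1 of 4, Dppa5a, lower, with 32.0% of all genes higher and 15.4% lower, and on day 9 it gave 5 of 6 higher, without Trim71, with 22.5% of all genes higher and 15.8% lower. With the same number of top-scoring peaks taken from each library, 34062, H3.3 peaks were listed at 8 of the 9 genes in D12S+ and 7 in D16S+, and at 2 in D12S- and 3 in D16S-, against 44.7%, 43.3%, 50.2% and 46.2% of all genes in that order.

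Levels were compared between genes per kb of window, counting the part of each peak inside it. In iPSCs Trim71 had 12.2 normalized tags per kb (11.8 to 12.7), followed by Lin28a at 10.9, Tdgf1 at 10.7, L1td1 at 10.0, Dppa2 at 9.94, Dppa5a at 9.34, Dppa4 at 5.70, Utf1 at 5.67 and Lin28b at 0.124. Trim71 exceeded Lin28a by 1.12-fold (1.03 to 1.21), and the neighbours from Lin28a down to Dppa5a did not differ beyond their counting error. Dppa5a exceeded Dppa4 by 1.63-fold (1.31 to 2.03), Dppa4 and Utf1 did not differ beyond counting error (0.778 to 1.30), and Utf1 exceeded Lin28b by 46.0-fold (32.3 to 65.9). The median over the 13683 genes with a peak was 1.57, and 8 of the 9 genes lay above it. In ESD3 the order was Tdgf1 at 13.6, Trim71 at 10.9, Dppa5a at 8.68, L1td1 at 5.80, Dppa2 at 4.04, Utf1 at 2.73, Lin28a at 1.53, Dppa4 at 1.04 and Lin28b at 0.184, with a median of 0.8996 over genes with a peak. Tdgf1 exceeded Trim71 (1.08 to 1.43), Dppa5a exceeded L1td1 (1.10 to 2.04), L1td1 exceeded Dppa2 (1.11 to 1.86), Utf1 exceeded Lin28a (1.03 to 3.07) and Dppa4 exceeded Lin28b (3.33 to 9.07), while the remaining neighbours in the order did not differ beyond counting error.

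By the 2-fold rule, 2 of the 9 genes were higher in iPSCs than in ESD3 (Dppa4 and Lin28a) and 0 were lower, against 55.2% of all genes higher and 9.58% lower. Dppa4 had a ratio of 4.09 (2.97 to 5.90) and Tdgf1 one of 0.564 (0.495 to 0.644). With scaling to tags in peaks, Dppa4 and Lin28a were still more than 2-fold higher in iPSCs, and 3 genes (Tdgf1, Lin28b and Dppa5a) were more than 2-fold lower, with 34.0% of all genes higher and 18.6% lower. From D0 to D3, 3 of 6 were higher (Lin28a, Lin28b and L1td1), against 10.5% of all genes, and 2 of 6 were lower (Dppa5a and Tdgf1), against 40.7%. Scaled to tags in peaks these counts were 3 and 2 again, with 19.2% of all genes higher and 24.7% lower.

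H3K4me3, the start-site mark, divided the genes in D0. In D0, H3K4me3 peaks were listed at 5 of the 9 genes (Utf1, Lin28a, Lin28b, Trim71 and L1td1), against 70.2% of all genes, and in iPSCs at 9 of 9, against 69.0%. Only Trim71 and Lin28b of these 5 had an H3.3 peak in D0. Dppa2, Dppa4, Dppa5a and Tdgf1 were without an H3K4me3 peak in D0. By the 2-fold rule 8 of the 9 genes were higher in iPSCs than in D0 and 1, Lin28b, was lower, against 5.55% of all genes higher and 71.2% lower, and the median ratio over all genes was 0.383. Scaled to tags in peaks, 8 genes were higher, 0 were lower, and 11.1% of all genes were higher and 16.3% lower.

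Tdgf1 was the first of the 4 unmarked genes to show H3K4me3, with 10.3 normalized tags on day 3, 23.3 on day 6, 42.7 on day 9, 138 on day 12, 20.6 on day 16 and 231 in iPSCs. The D3 peak lay 0.575 to 1.201 kb past the start site, and a peak over the start site was first listed in D12S+. Dppa2 and Dppa4 both showed H3K4me3 first in D12S+, at 26.5 and 37.8 over their start sites. Dppa2 had 33.2 in D16S+ and 137 in iPSCs, and Dppa4 had 9.17 and 127. At Dppa4 the H3K4me3 peak was thus listed in D12S+ and D16S+, 2 libraries on the route in which no H3.3 peak was listed. Dppa5a was last, with 14.5 in D16S+ and 87.6 in iPSCs. Per M tags in peaks the values in D12S+, D16S+ and iPSCs were 149, 55.5 and 181 at Tdgf1, 28.6, 89.5 and 108 at Dppa2, and 40.8, 24.7 and 100.1 at Dppa4.

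Among the genes that carried H3K4me3 in D0, L1td1 had 46.2 normalized tags in D0, 53.1 on day 3, 258 on day 6, 241 on day 9, 227 on day 12, 102 on day 16 and 327 in iPSCs. The ratio to D0 was 1.15 (0.9102 to 1.46) in D3 and 5.59 (4.66 to 6.76) in D6T-. With scaling to tags in peaks the ratio to D0 was 4.89 on day 6, 6.68 on day 9, 16.1 on day 12, 18.0 on day 16 and 16.9 in iPSCs, so the lower value of day 16 was not seen under it. In iPSCs the main L1td1 peak was 10.9 kb long, against 2.14 kb in D0. Lin28a had 25.2 in D0, 19.1 to 54.2 in the libraries between, and 178 in iPSCs, a ratio of 7.06 (5.51 to 9.05). Scaled to tags in peaks, Lin28a was 7.05-fold above D0 in D12S+, 10.99-fold in D16S+ and 16.8-fold in iPSCs, in place of 2.15, 1.34 and 7.06. Trim71 had 312 in D0 and 841 in iPSCs, a ratio of 2.69 (2.50 to 2.91) or 6.43 with scaling to tags in peaks, with a start-site peak that was 5.19 kb long in D0 and 18.4 kb in iPSCs. Utf1 had 66.1 in D0, 29.8 to 47.2 in D3, D6T-, D9T- and D16S+, 94.2 in D12S+ and 144 in iPSCs, a ratio of 2.18 (1.85 to 2.59). In iPSCs 53.7% of the peak lay in the window. Prorated to the window, Utf1 held 66.1 in D0, 55.6 in D12S+ and 77.5 in iPSCs, so that iPSCs stayed under the 2-fold limit. For D16S+ the Utf1 ratio to D0 turned from 0.450 to 3.69 with scaling to tags in peaks, and it went from 1.43 to 4.67 for D12S+ and to 5.21 for iPSCs. Its H3K4me3 peak ended 1.18 kb past the start site in D0 and reached 3.93 kb in D12S+ and 4.53 kb in iPSCs, over the downstream stretch that carried H3.3.

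Lin28b was the 1 gene of the 9 with less H3K4me3 in iPSCs than in D0. Its H3K4me3 sum was 220 normalized tags in D0, 225 on day 3, 348 on day 6, 227 on day 9, 79.7 on day 12, 12.3 on day 16 and 76.2 in iPSCs. Lin28b in iPSCs had 0.347 times the D0 value (0.300 to 0.401), or 0.828 times with scaling to tags in peaks. The same scaling turned the ratio of D12S+ to D0 from 0.363 to 1.19 and moved that of D16S+ from 0.0560 to 0.458. Separate peaks lay at the outer start site and at an inner annotated start site. At the outer site the values were 137 in D0, 105 on day 3, 119 on day 6, 80.1 on day 9, 24.6 on day 12 and 43.5 in iPSCs, with no peak in D16S+. At the inner site they were 65.7, 90.0, 175, 129 and 55.1 from D0 to D12S+, 12.3 in D16S+ and 16.0 in iPSCs. The inner peak was therefore the smaller of the pair in D0, D3 and iPSCs and the larger in D6T-, D9T- and D12S+, and the only one of the pair in D16S+.

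**Figure D3:**
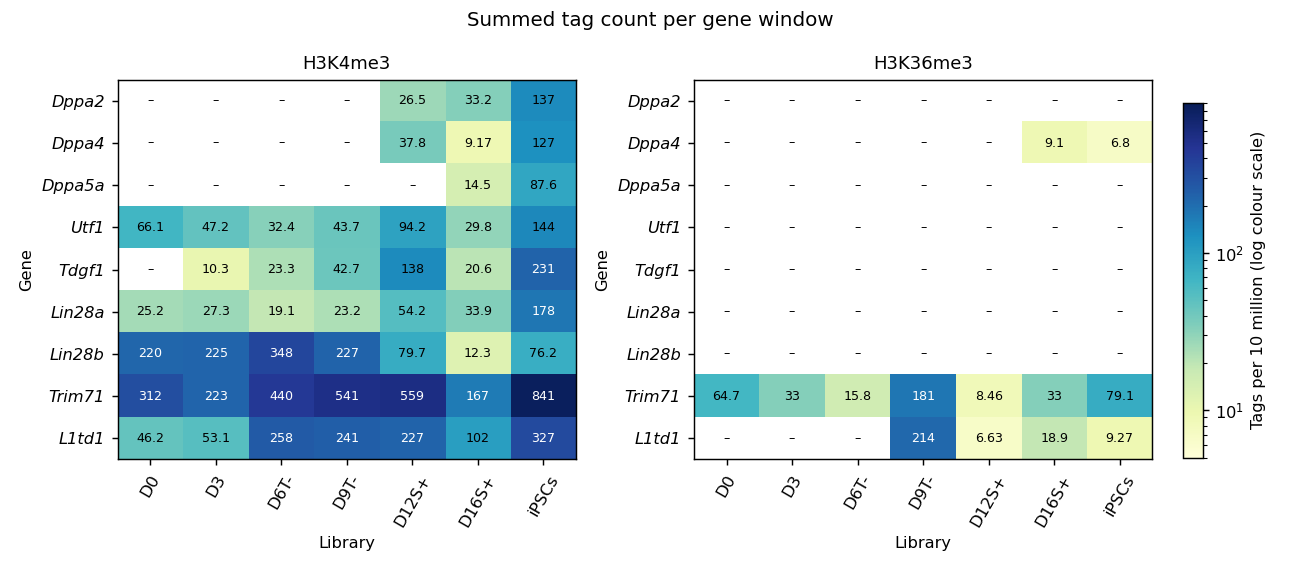
Summed tag count (normalized tags, log colour scale) of H3K4me3 (left) and H3K36me3 (right) at each gene in D0, D3, the 4 successful fractions and iPSCs, with a dash where no peak was listed. H3K4me3 is filled for 5 genes in D0 and for all 9 in iPSCs, and H3K36me3 is filled for at most 3 genes.

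The number of CpG dinucleotides within 500 bases of the start site separated the genes in the same way as H3K4me3 in D0. Dppa2 had 16, Dppa4 19, Dppa5a 29 and Tdgf1 31, all without an H3K4me3 peak in D0. Lin28a had 34, L1td1 40, Utf1 64, Trim71 78 and Lin28b 153, all with one. The median over all genes was 40. The division lay between 31 and 34 CpG, and the ratio of observed to expected CpG did not give it. That ratio was 0.602 at Tdgf1, without a peak, but 0.384 at Lin28a and 0.494 at L1td1, which both had one. The Lin28a peak also lay over Gm13061. Of all genes with at least 12 and fewer than 40 CpG, 47.2% had an H3K4me3 peak within 1 kb of the start site in D0, and 1 of the 5 effector genes in that class did. Of those with at least 40 and fewer than 69, 98.4% had one, and of those with 69 or more, 99.8%, as did all 4 effector genes in these classes. The inner start site of Lin28b had 19 CpG and carried H3K4me3 in D0 nonetheless. The GC box GGGCGG, on either strand, was found in the 250 bases before 5 of the 9 start sites and before 39.6% of all, and the Sox core CATTGT before 1, Lin28a, and before 9.09% of all. The octamer ATGCAAAT (1.62% of all), the Klf box CCACACCC (3.25%) and the E-box CACGTG (6.51%) were not found in these 9 stretches.

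**Figure D4:**
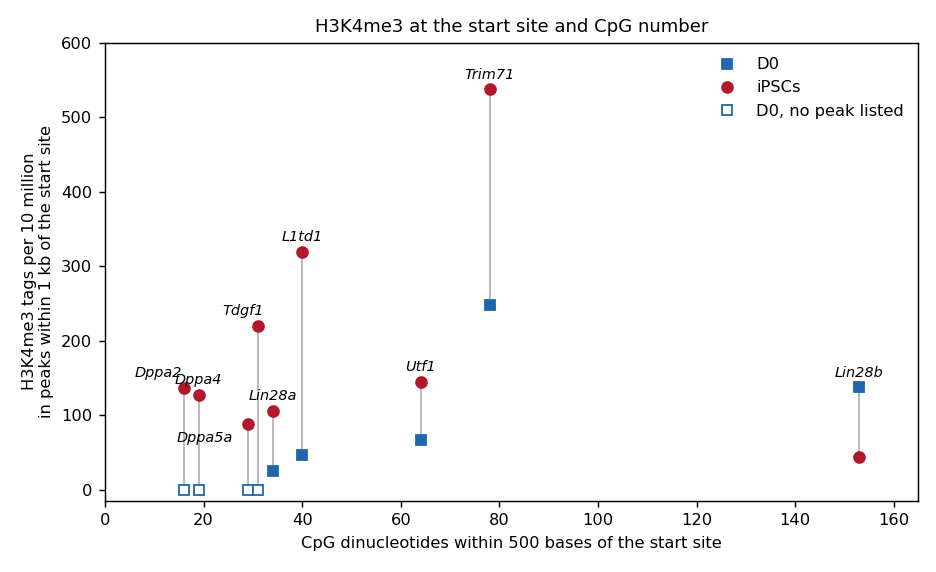
H3K4me3 (normalized tags, in peaks within 1 kb of the start site) in D0 (blue squares, open where no peak was listed) and in iPSCs (red circles) against the number of CpG dinucleotides within 500 bases of the start site, 1 vertical line per gene. The 4 genes with 16 to 31 CpG had no D0 peak, and Lin28b, with 153, is the gene whose iPSC value lies below its D0 value.

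H3K36me3 was rare at these genes. In D0 a peak was listed at 1 of the 9, Trim71, against 49.7% of all genes, and in iPSCs at 3 (Trim71, L1td1 and Dppa4), against 34.7%. Trim71 carried H3K36me3 in all 7 libraries, with 64.7 normalized tags in D0, 33 on day 3, 15.8 on day 6, 181 on day 9, 8.46 on day 12, 33 on day 16 and 79.1 in iPSCs. In D0 it was a single peak 50.2 to 52.5 kb past the start site, at the 3' end, and in iPSCs it was 8 peaks spread over the gene. L1td1 had 214 in D9T-, covering 57.9% of the window, then 6.63 in D12S+, 18.95 in D16S+ and 9.27 in iPSCs. Per M tags in peaks these L1td1 values were 50.4, 61.9, 95.04 and 32.1, so that D9T- was not the highest, and Trim71 was 13.3-fold higher in iPSCs than in D0, in place of 1.22. Dppa4 had 9.10 in D16S+ and 6.80 in iPSCs, from 12 and 17 tags. By the 2-fold rule 2 of the 3 genes with a peak were higher in iPSCs than in D0, against 6.64% of all genes higher and 88.9% lower. With scaling to tags in peaks 3 of 3 were higher, against 24.5% of all genes higher and 46.3% lower.

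**Figure D5:**
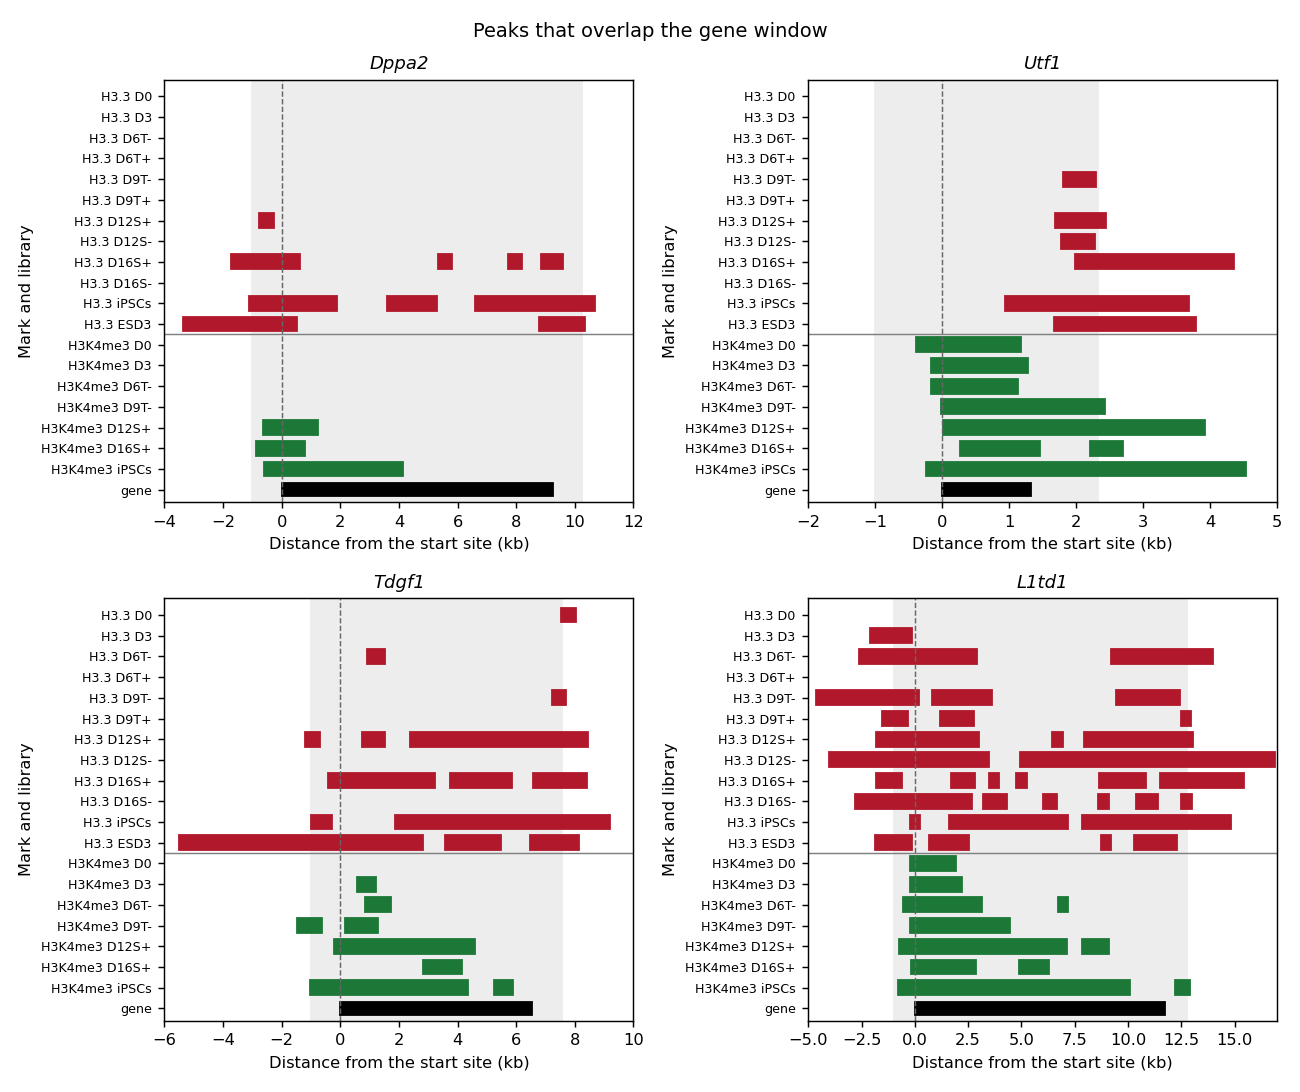
Position of the peaks (bars) that overlapped the windows (grey) of Dppa2, Utf1, Tdgf1 and L1td1, as distance in kb from the start site in the direction of transcription, for H3.3 (red) and H3K4me3 (green) in each library, with the gene in black. At Utf1 the H3.3 bars begin 0.93 kb or more past the start site, whereas H3K4me3 in D0 spans it.

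In the transdifferentiation libraries, H3.3 peaks lay at 1 of the 9 genes in MEF, 5 in D4 and 0 in cKit+ and cKit-, against 53.2% of all genes in MEF and 72.1% in D4. The MEF peak was at Trim71, with 46.0 normalized tags, and cKit+ and cKit- had none at any of the 9 genes, where 33.2% and 31.8% of all genes had one. Higher in cKit+ than in MEF were therefore 0 of 1, against 10.4% of all genes higher and 74.9% lower (27.2% and 51.7% with scaling to tags in peaks). The cKit+ library had 91.8 M tags with 1.65% of them in peaks, and 3 of 8 hematopoietic marker genes had a peak (Ptprc, Kit, Gfi1b and Itga2b were among those with none), while 5 of 8 fibroblast marker genes had one. In D4, peaks lay at Trim71 (260), Lin28b (53.5), Dppa5a (20.1), L1td1 (18.4) and Tdgf1 (15.3), in a library with 37.2% of its tags in peaks where 95.2% of all genes were higher than in MEF (47.0% with scaling to tags in peaks). D0 and MEF were the day 0 fibroblasts of the 2 experiments, and Dppa5a, Tdgf1 and Lin28b had a peak in D0 and not in MEF. These were 3 of the 4 effector genes with a peak in either library, where 66.8% of all genes were higher in D0 and 7.19% lower. With scaling to tags in peaks these shares were 35.25% and 17.7%. The median ratio of D0 to MEF was 2.60 over all genes. Peaks that overlapped the D0 peaks of Dppa5a, Tdgf1 and Lin28b were listed in D4, and in D3 such a peak was listed at Lin28b.

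The surrounding pathways were read in the same windows. Of 14 genes of the Lin28 and let-7 pathway, H3.3 was higher in iPSCs than in D0 at 2 and lower at 5, against 24.6% and 41.6% of all genes. With scaling to tags in peaks 3 were higher and 3 lower, against 30.2% and 34.4%. Mycn, a let-7 target that encodes a Myc family factor, had 54.3 normalized tags in iPSCs and no peak in D0. Drosha, the nuclear microRNA-processing nuclease, was 2.22-fold higher, and the mRNA-binding protein gene Igf2bp1 had a ratio of 1.48. The let-7 target Hmga2, a chromatin architectural gene, had a ratio of 0.126, and Arid3a, for a DNA-binding factor, had one of 0.138. Of 12 genes of the Nodal and Cripto pathway, 5 were higher and 4 lower, or 5 and 2 with that scaling. The ligand Nodal had 119 normalized tags in iPSCs and the transcription factor Foxh1 83.1, both without a peak in D0, whereas the ratio was 0.0512 for the signal transducer Smad3 and 0.233 for the receptor gene Acvr1b. The receptor gene Acvr2b had a ratio of 1.35 and the inhibitor gene Lefty1 one of 0.873.

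Of 14 other genes that serve as effectors or markers of embryonic stem cells, 11 were higher with either scaling, 0 were lower, and Eras and Slc7a3 had no peak in either library. Dnmt3l, a cofactor of DNA methyltransferases, was 13.5-fold higher and Fbxo15, an F-box gene, 10.4-fold higher. Tdh, for threonine dehydrogenase, had 148 and Ooep 109.6 in iPSCs without a D0 peak, and Zfp296 had a ratio of 2.69. For H3K4me3, 0 of 14, 2 of 12 and 7 of 14 genes of the 3 lists were higher in iPSCs, and 10, 7 and 0 were lower, against 5.55% of all genes higher and 71.2% lower. With scaling to tags in peaks 2, 5 and 13 were higher and 0, 1 and 0 lower, against 11.1% and 16.3% of all genes.

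Over the 12 reprogramming H3.3 libraries, log2(summed tag count + 5) of each gene was correlated with the mean of the centred values of the 9 genes. Among 15223 genes with a peak in at least 3 libraries, the highest Pearson r outside the 9 genes was 0.975 for Izumo2, followed by Padi2 (0.971), Fbxo36 (0.964), Nr5a2 (0.962) and Gm17285 (0.959). All points of these correlations share libraries, depth and peak calling. Izumo2, for example, had no peak in D0 and D3, 12.7 in D12S+, 23.2 in D16S+ and 65.7 in iPSCs, and Nr5a2, a nuclear receptor gene, had 17.1, 34.1 and 179 in these last 3 libraries. Within the 9, the r of a gene with the mean of the other 8 was highest for Utf1 (0.933) and Dppa2 (0.903) and lowest for Lin28b (0.285) and L1td1 (0.403).

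Input signal was read under the same peaks. Over the 132 pairs of gene and library with a peak, the input density under the peaks was 0.497 to 1.96 times the median of all peaks of the library, with a median of 1.12. The fold of a peak over input was low in iPSCs, at 2.46 to 5.18 over 28 H3.3 peaks of the 9 genes, and 2 of the 28 peaks reached a fold of 4, as did 22.6% of all iPSC peaks and 55.1% of all D0 peaks. At a fold of at least 4, H3.3 peaks were listed at 1 of the 9 genes in D0 and at 2 in iPSCs. The shares of all genes with a peak of that fold were not computed.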

How the data were processed

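Of 46 samples, 30 ChIP-Seq libraries came with peak lists and 16 were inputs. Per the study's methods, reads were mapped to mm9 with STAR, reads with several locations were removed, and peaks were called per library with HOMER. Versions are not given in the sources used here. The deposited signal of each peak is a tag count that the authors normalized to libraries of 10 M tags, without subtracting input or dividing by length. The deposited fold over input is a ratio of tags to scaled input tags (at least 2 for H3.3, 4 for the other marks), and the deposited p-value is Poisson, at most 0.0001. Removing reads with several locations can lower counts at genes with related copies, such as Dppa5a and Tdgf1.

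Peaks were joined to windows in Python 3.11.15 (numpy 2.4.6, pandas 2.3.3, scipy 1.17.1), and the steps were tested on simulated peaks. Values of all 9 genes are given, and of other lists the 2 highest and 2 lowest; the 5 most alike genes are named by Pearson r. Genes and lists were chosen with earlier results of these data known. Alternatives were the gene body alone, prorating to the window, peak midpoints, equal numbers of top-scoring peaks, a fold of at least 4, input subtraction and peaks within 1 kb of the start site. Scaling to tags in peaks was added after the data had been seen. Hematopoietic marker genes had a peak at 6 of 8 in D0, at 5 in iPSCs and at 3 in cKit+. With 1 library per group, no p-value was computed. Values of some single genes in the comparison lists are not reported here.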

Additional observations from a re-analysis of the deposited data

How the results depend on the processing

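Depth and enrichment limit every count of genes with a peak, since a weak peak can fall under the threshold of the caller in 1 library and pass it in another, and no library had a replicate. No paired analysis was possible because each group had 1 library and the comparisons came from no test.

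The D0 count of 4 genes with an H3.3 peak became 2 with equal numbers of top-scoring peaks, 1 at a fold over input of at least 4 and 1 with peaks within 1 kb of the start site. Of all genes, 61.8% had a D0 peak, 46.2% with equal numbers of peaks and 40.4% within 1 kb of the start site. For the fold limit, the gene body, peak midpoints and the comparisons near the start site, shares of all genes were not computed. The fold of at least 4 brought the 9 genes with a peak in iPSCs to 2, and the 7 genes higher in iPSCs than in D0 to 2. Of all H3.3 peaks, 22.6% in iPSCs and 55.1% in D0 reached that fold. For H3K36me3 the 2 higher genes became 1 with equal numbers of peaks, where 14.3% of all genes were higher, and 0 near the start site. On day 9 the 6 higher genes became 3 in the gene body, 2 at the fold of at least 4 and 2 near the start site. On day 12 the 4 higher genes became 2 in the gene body and 7 with scaling to tags in peaks, and on day 16 the 4 became 2 with peak midpoints and 7 with that scaling. The cause of these changes was not tested. The counts for H3K4me3 and for day 6 stayed within 1.5 times under every alternative run. The cKit+ count of 0 could not change under them, since that library had no peak at any of the 9 genes. Of the 64 H3.3 sums of single genes, 16 (peak midpoints) to 51 (near the start site) moved outside their counting interval under an alternative.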
